A study of Mus musculus with 8 samples.

Results

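The collagen gene family was examined in mouse brown adipose tissue (BAT) after the aorta had been narrowed by thoracic aortic constriction (TAC), which loads the left ventricle, or after sham surgery (Sham). Its members were all genes with a symbol made of Col, a number, the letter a and a number, named through the RefSeq accession of the array probe. They were 44 of the 21154 genes that could be named on the array, measured by 64 of its 55681 probes, and no collagen gene of the RefSeq table lacked a probe. All mice were C57BL/6NCrSlc males, operated on at 11 weeks of age, kept at 23 °C on normal chow and, by their stated age, sampled at 13 weeks. For the interval between surgery and collection the labels conflict, with 2 weeks in the source name and 4 weeks in the description. They list 4 Sham and 4 TAC samples with 1 single-colour Agilent array each, and 100 ng of RNA went into each Cy3 labelling. The labels name no transgene and no drug in either group. Brown adipocyte markers were present, since all 10 genes of that list, Ucp1 among them, were above background.

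Collagens are built from alpha chains that wind into triple helices. Fibrillar types I, III and V form the fibres of the stroma and the tissue capsule, type IV forms the sheet of the basement membrane, and type VI forms beaded filaments in the matrix around cells. In adipose tissue each adipocyte and each capillary is wrapped in a basement membrane, fibroblasts of the stroma make most fibrillar chains, and excess deposition of these chains is known as fibrosis.

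Scanner intensities were used for 7 arrays, which leave out Sham replicate 1, and a table of scaled intensities for all 8. The 7 arrays lay on 1 slide with Sham in the first row and TAC in the second, so row and surgery cannot be told apart. A level below is the log2 of the table value, that is of an intensity divided by the 75th percentile of its array, so that 0 is the level of that percentile. Levels can be compared between mice for 1 gene, not between genes, because each probe binds with its own strength. The summed linear level of a marker list is therefore led by its brightest probes and need not follow the others. Between 54.5% and 64.3% of the spots of an array were well above background. TAC replicate 1 stood apart from the other arrays, with the lowest weight (0.277, against 0.888 to 1.85 on the others) when limma estimated how close each array lay to its group, so the log2 fold changes of the collagens are also given without it where that turned their sign or moved them by over 1.5 times. In bulk tissue, fewer cells of a type and less RNA per cell cannot be told apart.

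The promoter windows of 4 genes are shown because their genes carry the results below. Col4a1 and Col4a2 encode the chains of the common type IV network and stand head to head, and Col1a2 and Col3a1 encode the fibrillar chains of types I and III. Each window runs from 250 bases before the RefSeq transcript start to 50 from it, on the GRCm38.p6 assembly, and is printed 5′ to 3′ on the strand of the gene. Capitals mark matches on either strand of TATAAA (the TATA box), CCAAT (the CCAAT box) and GGGCGG (the GC box).
Col4a1 (chr8:11312777-11313076, - strand): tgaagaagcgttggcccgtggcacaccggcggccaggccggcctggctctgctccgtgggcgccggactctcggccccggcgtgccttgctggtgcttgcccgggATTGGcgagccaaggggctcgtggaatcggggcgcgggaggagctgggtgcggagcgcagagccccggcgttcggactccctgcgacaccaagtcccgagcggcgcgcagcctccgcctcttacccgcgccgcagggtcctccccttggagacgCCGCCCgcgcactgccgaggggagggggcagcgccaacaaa
Col4a2 (chr8:11312555-11312854, + strand): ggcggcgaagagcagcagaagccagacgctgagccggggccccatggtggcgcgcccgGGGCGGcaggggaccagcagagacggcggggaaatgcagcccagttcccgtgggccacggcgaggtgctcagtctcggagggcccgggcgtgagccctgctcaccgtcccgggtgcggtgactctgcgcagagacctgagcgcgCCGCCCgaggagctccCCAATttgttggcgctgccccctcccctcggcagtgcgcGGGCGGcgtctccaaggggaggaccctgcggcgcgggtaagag
Col1a2 (chr6:4505368-4505667, + strand): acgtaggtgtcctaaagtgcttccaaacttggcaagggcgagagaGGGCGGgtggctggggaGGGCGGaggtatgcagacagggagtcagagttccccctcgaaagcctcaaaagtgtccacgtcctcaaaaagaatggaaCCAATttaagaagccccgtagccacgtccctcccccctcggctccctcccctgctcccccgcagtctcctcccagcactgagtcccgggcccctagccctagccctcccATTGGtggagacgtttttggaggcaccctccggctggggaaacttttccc
Col3a1 (chr1:45311288-45311587, + strand): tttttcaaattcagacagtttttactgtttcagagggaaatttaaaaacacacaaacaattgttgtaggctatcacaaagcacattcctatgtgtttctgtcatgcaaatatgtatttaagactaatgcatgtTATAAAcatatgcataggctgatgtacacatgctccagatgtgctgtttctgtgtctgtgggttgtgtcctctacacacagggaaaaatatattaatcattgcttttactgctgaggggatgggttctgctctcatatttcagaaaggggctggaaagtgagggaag

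The windows of Col4a1 and Col4a2 share 78 bases, and their starts lie 21 bases apart on opposite strands. Their GC content was 74.0% and 73.7%, against a median of 52.7% over all 32851 windows. The Col4a1 window holds a CCAAT box on the opposite strand, 145 bases before the start. The Col4a2 window holds 3 GC boxes and 1 CCAAT box, which lies 32 bases before the start, and 1 of its GC boxes is the one marked on the other strand in the Col4a1 window. Col1a2 has 2 GC boxes, 205 and 188 bases before its start, and 2 CCAAT boxes, 1 of them 109 bases before the start and 1 on the opposite strand at the start itself, while Col3a1 (GC content 37.7%) has only a TATAAA, 117 bases before it. None of the marked matches overlaps another. A GC box was present in 23 of the 38 collagen windows (60.5%), which belong to 35 of the 44 genes, and in 35.7% of all windows. The CCAAT box was in 13 collagen windows (34.2%, against 37.4% of all) and TATAAA in 5 (13.2%, against 13.6%). These are matches of letters and no evidence of binding.

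Of the 44 collagen genes, 26 were well above background on each of the 7 arrays and 10 on none. A gene was tested if its probe was well above background on at least 3 arrays, which left 31 collagen genes and 13 that were not tested. Tested were 8 of 11 fibrillar genes, 5 of 6 type IV genes and 18 of 27 others. The genes not tested were Col2a1, Col11a1 and Col24a1 of the fibrillar class, Col4a3, and Col6a4, Col6a5, Col8a2, Col9a3, Col10a1, Col17a1, Col19a1, Col22a1 and Col26a1. They include the main chain of hyaline cartilage (Col2a1), the collagen of growth plate cartilage (Col10a1) and a hemidesmosome component of skin (Col17a1). Col4a3 was well above background on 2 arrays, both Sham, and Col8a2 and Col26a1 on 1 array each.

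No collagen gene passed an adjusted p of 0.05 between TAC and Sham (limma with Benjamini-Hochberg adjustment over 33364 probes). The share of all probes past that threshold was 0%, and the lowest adjusted p of a collagen gene was 0.228. Of the 31 tested genes, 17 were higher and 14 lower after TAC, where 44.2% of all probes were higher and 55.8% lower. The median log2 fold change was 0.034 over the collagens and -0.032 over all probes. Without TAC replicate 1 more of the collagens were lower than higher, as held for all probes, whose median was then -0.015. The mean difference of the collagens, another measure than the median, went from 0.002 to -0.071. Furthest from 0 in that mean was Col25a1 at -0.888, a probe that was dim after TAC. At an unadjusted p under 0.05, 3 collagen genes were higher (4.38% of all probes were) and 3 were lower (8.43% of all probes were), 6 of 31 in all against 12.8% of probes. Of these 6, Col28a1, Col9a1 and Col25a1 were well above background on fewer arrays of the dimmer group than of the brighter one, so the counts are a description. All 6 were of the class of other collagens, and the fibrillar and type IV classes had 0 in either direction. In the plot of fold changes, the intervals of the fibrillar chains cross 0 on both sides.

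**Figure D1:**
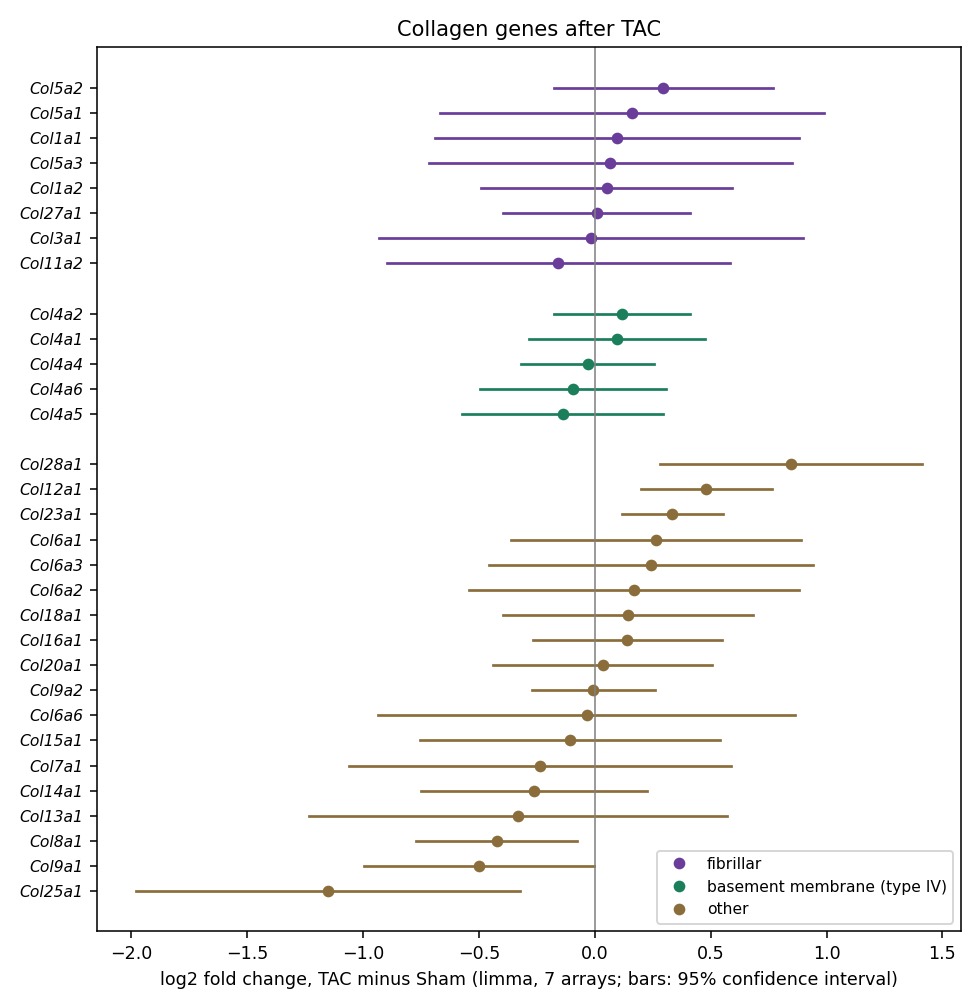
Log2 fold change of each tested collagen gene, TAC minus Sham, from limma on 7 arrays (x axis), with 95% confidence intervals as bars and genes in rows grouped by class. Only Col12a1, Col23a1 and Col28a1 lie above 0 with their whole interval, and only Col8a1, Col9a1 and Col25a1 below it, none past an adjusted p of 0.05.

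Fibrillar chains differed more between mice of a group than between the groups. The median log2 fold change of the 8 tested genes was 0.059 over 7 arrays and 0.016 over the 8 arrays of the table, and 6 were higher and 2 lower. Without TAC replicate 1 the median turned to -0.14, and without TAC replicate 4 it was 0.24. Against the mean of Sham replicates 2 to 4, the mean of the class was 0.55, 0.071, -0.032 and -0.34 for TAC replicates 1 to 4, and 0.16, -0.23 and 0.063 for those Sham replicates. So the TAC arrays spread over a wider range than the Sham arrays and on both sides of them, but above them only through TAC replicate 1. TAC replicates 2 to 4 ran from -0.34 to 0.071, a width close to the 0.388 of the Sham arrays.

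Col1a1, which encodes the major chain of type I collagen, was at levels of 3.76, 4.13, 3.46 and 3.91 on Sham replicates 1 to 4 and at 4.75, 3.61, 3.91 and 3.37 in the same order for TAC. The highest and the lowest level both belonged to TAC mice, and the groups overlapped. Its log2 fold change was 0.096 (95% interval -0.69 to 0.88, limma adjusted p = 0.919), and -0.18 without TAC replicate 1. Col1a2, its partner chain, was at 5.88, 6.01, 5.58 and 5.94 in Sham and at 6.44, 5.80, 5.82 and 5.46 in TAC. The order of the mice was nearly that of Col1a1, with TAC replicate 1 at the top and TAC replicate 4 at the bottom. Its fold change was 0.052 on the log2 scale (interval -0.49 to 0.59, limma adjusted p = 0.938) and -0.13 without TAC replicate 1.

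Col3a1, the single chain of type III collagen, which forms fine fibres in distensible tissue, had the widest range of the tested fibrillar genes. Its levels were 5.09, 5.37, 4.46 and 5.10 on the Sham arrays and 5.75, 5.08, 4.86 and 4.11 on the TAC arrays. The range over the 8 mice was 1.64 on the log2 scale, or 3.12-fold, with both ends in the TAC group. The difference between the groups was -0.015 (interval -0.93 to 0.90, limma adjusted p = 0.991), and -0.28 without TAC replicate 1.

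Type V collagen is incorporated into type I fibrils and limits their diameter. Its chain Col5a1 was at 1.27, 1.34, 0.70 and 1.04 on the Sham arrays and at 2.10, 1.06, 0.97 and 0.57 in TAC. Again TAC replicate 1 was highest and TAC replicate 4 lowest, and the log2 fold change was 0.16 (interval -0.67 to 0.99, limma adjusted p = 0.865) and -0.145 without TAC replicate 1. Col5a2 was at -2.12, -2.39, -2.47 and -2.29 in Sham and at -1.68, -1.93, -2.54 and -2.26 in TAC. Here TAC replicates 1 and 2 were above every Sham array and TAC replicate 3 below every one. Its fold change of 0.296 was the largest of the class (interval -0.18 to 0.77, limma adjusted p = 0.554), and it was 0.16 without TAC replicate 1. Col5a3, another chain of the type, was at 3.03, 3.06, 2.48 and 3.0 in Sham and at 3.79, 2.75, 2.60 and 2.46 in TAC, with a fold change of 0.066 that turned to -0.23 without TAC replicate 1. The minor fibrillar genes Col27a1 (0.008) and Col11a2 (-0.16) did not pass the test either, and without that array they were at -0.085 and 0.105.

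Type VI chains followed the fibrillar chains from mouse to mouse. Col6a1 was at 4.07, 4.17, 3.60 and 4.07 in Sham and at 4.86, 4.10, 4.03 and 3.80 in TAC. TAC replicate 1 was above all other mice, and the 3 other TAC mice lay within the range of the Sham mice. Col6a2 was at 1.78, 1.89, 1.20 and 1.67 in Sham and at 2.49, 1.67, 1.5 and 1.29 in TAC. Col6a3, whose cleaved end is known as endotrophin, was at 3.43, 3.40, 2.84 and 3.26 in Sham and at 4.14, 3.38, 3.19 and 2.87 in TAC. For both, TAC replicate 1 was again highest, and Sham replicate 3 was the lowest mouse of all. The log2 fold changes were 0.26 (interval -0.36 to 0.89) for Col6a1, 0.17 (-0.54 to 0.88) for Col6a2 and 0.24 (-0.46 to 0.94) for Col6a3, with limma adjusted p-values of 0.691, 0.83 and 0.750. Without TAC replicate 1 they were 0.047, -0.079 and -0.005. Col6a6, another type VI chain, was well above background on 3 Sham arrays and 1 TAC array and differed by -0.036, or by 0.14 without TAC replicate 1.

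**Figure D2:**
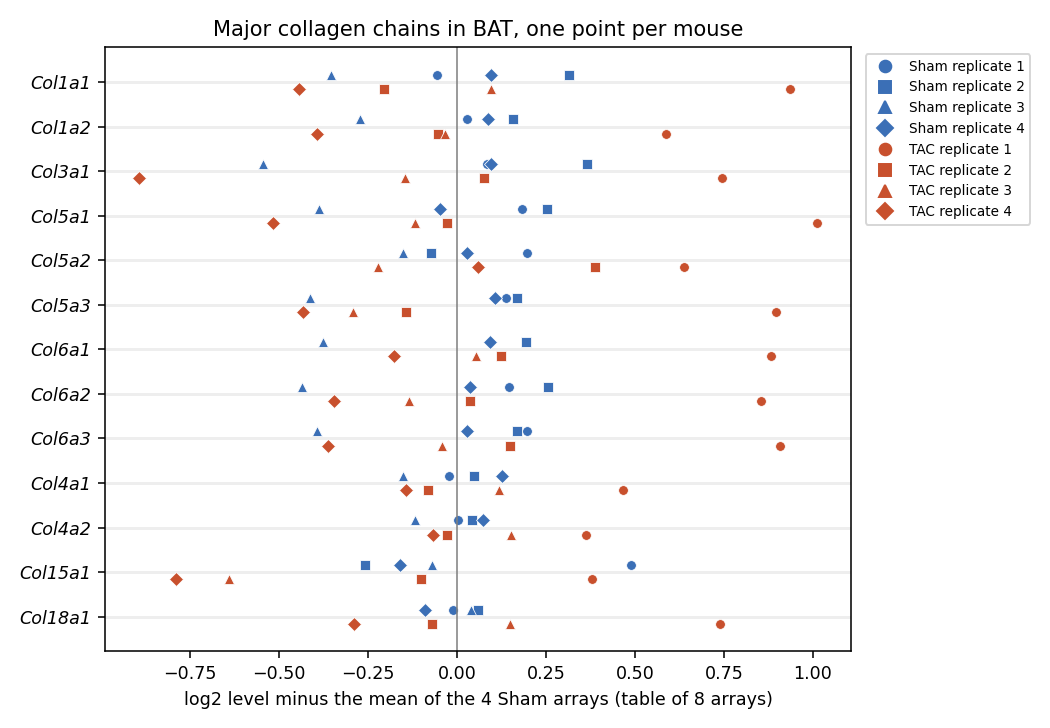
Level of 13 collagen genes on each of 8 arrays, as the log2 level minus the mean of the 4 Sham arrays (x axis), with genes in rows, Sham mice in blue and TAC mice in orange and 1 symbol per replicate number. For the 9 chains of types I, III, V and VI the TAC replicate 1 circle is the rightmost point, and the Sham replicate 3 triangle is the leftmost blue point.

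The 9 chains of types I, III, V and VI (Col6a1 to Col6a3) thus shared an order of mice that the surgery labels did not follow. TAC replicate 1 had the highest level of the 8 mice for 9 of 9 chains, as it did for 17.4% of all tested probes. TAC replicate 4 was the lowest TAC mouse for 8 of 9 (17.2% of all probes), and Sham replicate 3 was the lowest Sham mouse for 9 of 9 (23.1%). The range over 8 mice had a median of 1.295 on the log2 scale for these chains and 0.616 over all tested probes. These genes were put together after their values were seen, so the counts are a description. Probes of a gene family measured on the same arrays share RNA, labelling and scaling.

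Not every collagen was highest on TAC replicate 1. It was highest for 16 and lowest for 5 of the 31 tested genes, where 33.3% of all probes were lowest there. Among the lowest was Col7a1, which forms the anchoring fibrils under epithelia, at 0.92, 0.74, 1.43 and 1.20 in Sham and at 0.05, 1.15, 1.5 and 0.80 in TAC. Col11a2 was at -2.29, -2.14, -1.68 and -1.64 in Sham and at -2.77, -1.48, -1.69 and -2.03 in TAC. Both had overlapping groups, with differences of -0.24 and -0.16 on the log2 scale. Without TAC replicate 1 the difference of Col7a1 was 0.042.

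Type IV chains varied less between mice, with a median range over the 8 mice of 0.617 on the log2 scale against 1.309 for the fibrillar class. The median log2 fold change of the 5 tested genes was -0.031, with 2 higher and 3 lower, and no interval excluded 0. With Col7a1, Col15a1 and Col18a1 of the basement membrane zone added, the median was -0.064. Col4a1 was at 3.65, 3.72, 3.52 and 3.80 on the Sham arrays and at 4.14, 3.59, 3.79 and 3.53 on the TAC arrays. Its neighbour Col4a2, with the shared promoter printed above, was at 3.95, 3.99, 3.83 and 4.02 in Sham and at 4.31, 3.92, 4.10 and 3.88 in TAC. The order of the mice was nearly the same for both genes, with TAC replicate 1 highest and TAC replicate 3 next among the TAC mice. The fold changes were 0.096 (interval -0.28 to 0.47, limma adjusted p = 0.818) and 0.116 (-0.18 to 0.41, limma adjusted p = 0.710). Without TAC replicate 1 they were -0.027 and 0.033. The ranges over 8 mice were 1.53-fold and 1.4-fold, against 1.97-fold for Col1a2 and 2.61-fold for Col1a1. Col4a4, Col4a5 and Col4a6, chains of specialised basement membranes, differed by -0.031, -0.14 and -0.096, and without TAC replicate 1 the latter 2 differed by -0.29 and 0.027.

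The multiplexins Col15a1 and Col18a1 lie in and under basement membranes, and cleavage of the latter yields endostatin. Col15a1 was at -1.72, -2.47, -2.28 and -2.37 on the Sham arrays and at -1.83, -2.31, -2.85 and -3.0 on the TAC arrays. TAC replicates 3 and 4 were below every Sham array, while the other 2 TAC arrays lay within the Sham range. Its log2 fold change was -0.11 (interval -0.75 to 0.54, limma adjusted p = 0.888), -0.33 without TAC replicate 1 and -0.29 over the 8 arrays. Col18a1 was at 0.87, 0.94, 0.92 and 0.79 in Sham and at 1.62, 0.81, 1.03 and 0.59 in TAC, so the Sham mice lay close together and the TAC mice on both sides of them. Its fold change was 0.14 (interval -0.40 to 0.68, limma adjusted p = 0.807) and -0.055 without TAC replicate 1.

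Of the collagens, 3 had every TAC array above every Sham array, both over 7 and over 8 arrays. The share of all probes with such a pattern was 5.59% over 7 arrays and 3.53% over 8. Col12a1, a collagen that sits on the surface of type I fibrils, was at -1.15, -1.01, -1.18 and -1.06 in Sham and at -0.58, -0.70, -0.38 and -0.82 in TAC. The Sham mice lay within a narrow band and all TAC mice above it, TAC replicate 3 highest. The log2 fold change was 0.48 (SE 0.12, interval 0.20 to 0.76, limma unadjusted p = 0.00506, adjusted p = 0.228). It stayed between 0.40 and 0.55 with each array left out and was 0.31 under normexp background correction.

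Col23a1 encodes a transmembrane collagen. It was at -1.52, -1.65, -1.52 and -1.75 in Sham and at -1.24, -1.33, -1.42 and -1.29 in TAC. The groups were separated by a small gap. The log2 fold change was 0.335 (SE 0.092, interval 0.12 to 0.55, limma unadjusted p = 0.00798, adjusted p = 0.264). The 2 other tested probes of the gene gave 0.25 and 0.11, with unadjusted limma p-values of 0.214 and 0.700.

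Col28a1, a collagen found around Schwann cells of peripheral nerve, was at -3.70, -4.01, -4.47 and -3.57 in Sham and at -2.79, -3.22, -3.27 and -3.47 in TAC. TAC replicate 4 lay just above the highest Sham mouse. The log2 fold change was 0.85 (SE 0.24, interval 0.28 to 1.41, limma unadjusted p = 0.00935, adjusted p = 0.273), or 0.75 over the 8 arrays. Under normexp background correction it was 0.285. Its probe was well above background on 2 of 3 Sham and 4 of 4 TAC arrays. Of 5 Schwann cell markers, 1 was higher and 4 were lower after TAC, and the mean of that list differed by -0.17. Their summed linear level was 103 to 160.0 in Sham and 82.8 to 143 in TAC, all 5 were above background, and their part in the result was not tested.

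Lower after TAC at an unadjusted p under 0.05 were Col8a1, Col9a1 and Col25a1. Col8a1, a short-chain collagen of vessel walls and of the membrane under the corneal endothelium, was at -3.01, -2.83, -3.10 and -3.18 in Sham and at -3.18, -3.70, -3.43 and -3.59 in TAC. Its groups met at the level of TAC replicate 1 and Sham replicate 4. The log2 fold change was -0.42 (SE 0.15, interval -0.77 to -0.076, limma unadjusted p = 0.0234, adjusted p = 0.333). Normexp background correction gave -0.16, and leaving out 1 array at a time gave -0.52 to -0.32. Endothelial markers, 8 of 8 above background, had a mean difference of 0.02 and a summed linear level of 113 to 133 in Sham and 118 to 129 in TAC. These markers went both ways, 6 higher and 2 lower, from -0.70 for Cldn5 to 0.39 for Emcn. Their part in the result was not tested.

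Col9a1, a chain of the cartilage collagen that decorates type II fibrils, was at -3.57, -3.94, -3.80 and -3.43 in Sham and at -3.94, -4.61, -3.97 and -4.44 in TAC. Its groups touched at 1 level, and the log2 fold change was -0.50 (SE 0.21, limma unadjusted p = 0.0490, adjusted p = 0.388). The probe was well above background on 3 Sham arrays and 1 TAC array, so it was tested only because of the group in which it was brighter, and the fold change and p describe a probe that was mostly dim after TAC. Under normexp background correction the value was -0.24. Of 6 cartilage and bone markers, 4 were tested, with 2 higher and 2 lower, and Matn1 and Matn3 were well above background on no array.

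Col25a1, a transmembrane collagen of neurons and muscle, was the only collagen with every TAC array below every Sham array, a pattern of 10.4% of all probes over 7 arrays and 6.29% over 8. It was at -3.88, -3.94, -3.57 and -3.68 in Sham and at -5.72, -4.68, -4.11 and -5.16 in TAC. The probe was well above background on 0 of 4 TAC arrays and on 3 of 3 Sham arrays, so the same holds for its test. Its TAC level is a bound, taken on each TAC array as the higher of its own signal and the dimmest signal well above background. Against that bound the probe was at least 1.64-fold lower after TAC, with the background subtraction of the scanner values. The fitted log2 value was -1.15 (SE 0.35, limma unadjusted p = 0.0132, adjusted p = 0.294). Under normexp it was -0.21, a smaller difference than the bound. Another of the 4 probes of the gene, well above background on 1 array and not tested, had mean levels of -4.88 in Sham and -4.805 in TAC. The rest were well above background on no array. Requiring every array to be well above background left 1 collagen lower, Col8a1, and 2 higher, Col12a1 and Col23a1.

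**Figure D3:**
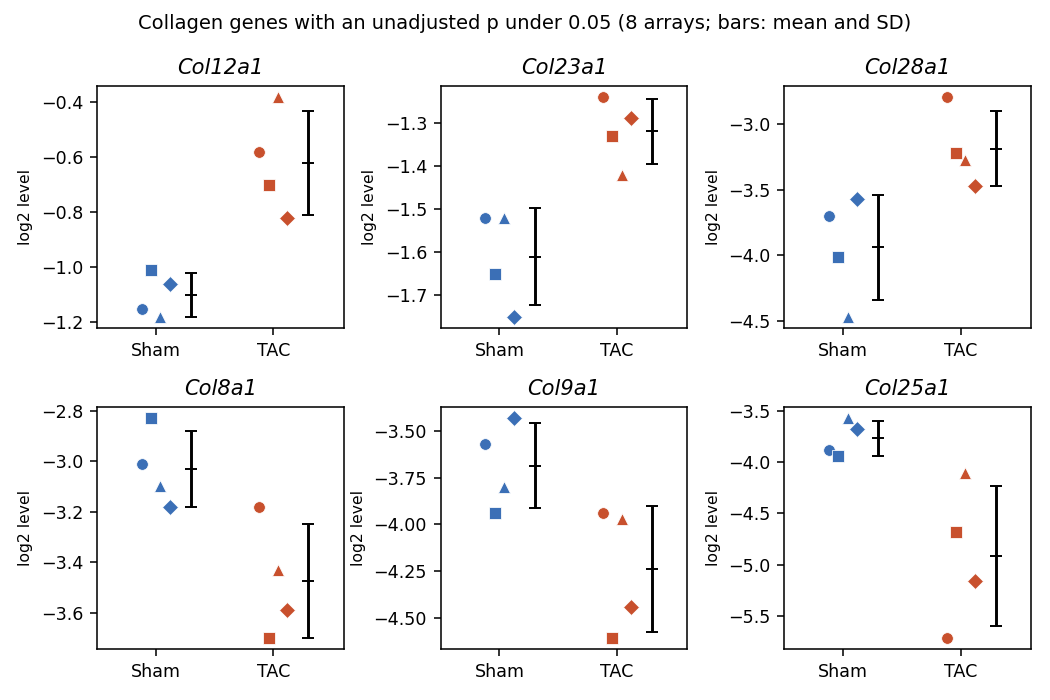
Log2 level (y axis) of the 6 collagen genes with an unadjusted limma p under 0.05, 1 symbol per mouse and array (4 Sham in blue, 4 TAC in orange), with the mean and SD of each group in black. Col12a1, Col23a1 and Col28a1 have all TAC points above all Sham points and Col25a1 all below, while the points of Col8a1 and Col9a1 meet.

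Col14a1 (-0.26) and Col16a1 (0.14), 2 more collagens of the fibril surface, and Col13a1 (-0.33), Col20a1 (0.034) and Col9a2 (-0.006) did not pass any threshold. Without TAC replicate 1 Col16a1 was at 0.001, Col20a1 at 0.21 and Col9a2 at 0.031. The probes of Col16a1 disagreed. The brightest gave 0.14, another -0.13, and a dim one, well above background on 4 arrays, -0.52 with an unadjusted limma p of 0.042. The tested probes of Col14a1, Col15a1, Col18a1 and Col4a4 each went the same way over 7 and over 8 arrays, while those of Col20a1 did so over 7 arrays and not over 8.

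Cell type markers were set beside the shared pattern of the stromal chains. Over 8 arrays and against the Sham mean, 10 fibroblast and adipose stromal markers averaged 0.18, 0.028, -0.083 and -0.16 on TAC replicates 1 to 4, and 0.026, 0.007, -0.19 and 0.16 on Sham replicates 1 to 4. The mean of the 6 chains of types I, III and V was 0.80, 0.004, -0.12 and -0.44 on the TAC arrays and 0.096, 0.20, -0.35 and 0.061 on the Sham arrays. Both had TAC replicate 1 highest and Sham replicate 3 lowest of its group. The marker average moved over a narrower range, and its 0.18 on TAC replicate 1 was close to the 0.16 of Sham replicate 4. The markers did not move as one on TAC replicate 1. Cd34, Fbn1, Lum, Ly6a and Pdgfra were highest of the 8 arrays there, Pi16 and Clec3b lowest, and Dcn, Dpt and Mfap5 neither. All 10 markers were above background, and their summed linear level was 150 to 181 in Sham and 163 to 182 in TAC. That sum was led by Dcn, by far the brightest, with a mean log2 level of 6.80 in Sham and 6.93 in TAC.

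Macrophage markers, 10 of 10 above background, averaged 0.84 on TAC replicate 1 and -0.50 to -0.14 on the other TAC arrays, with a summed level of 27.4 to 35.0 in Sham and 22.8 to 56.7 in TAC. The 6 tested lymphocyte markers averaged 1.17 on that array and -0.48 to -0.14 on the others, with sums of 2.92 to 3.97 and 2.78 to 5.02. Of both lists, the macrophage marker Cd163 was lowest of the 8 arrays on TAC replicate 1. Cd14 and the lymphocyte marker Cd3e were not highest there, while the other tested members were. Brown adipocyte markers averaged -1.18 on TAC replicate 1 and -0.47 to 0.065 on the other TAC arrays, with sums of 4680 to 5750 and 3710 to 4970. Elovl3, a fatty acid elongase, and Dio2, a thyroid hormone deiodinase, made up most of that average, at -5.36 and -2.36 against the Sham mean on TAC replicate 1, while Ucp1 was at -1.1 and the 7 others at -0.74 to -0.06. TAC replicate 1, the mouse with the highest levels of these chains, thus also had the highest macrophage, lymphocyte and skeletal muscle averages and the lowest brown adipocyte average. TAC replicate 4, low in the fibrillar chains, was below the Sham mean in the immune lists and in the brown adipocyte list. So was TAC replicate 2, and TAC replicate 3 was below the Sham mean in the immune lists. Mural markers, 7 of 7 above background, had their peak, 0.395, on TAC replicate 3, with sums of 48.6 to 52.5 and 48.2 to 68.0. Skeletal muscle markers, 12 of 12 above background and all higher after TAC on average, ranged from -1.14 to 1.37 over the mice, with TAC replicate 1 highest and TAC replicate 4 next at 1.21, with sums of 60.1 to 219 in Sham and 74.2 to 344 in TAC. What part any of these had in the collagen levels was not tested.

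**Figure D4:**
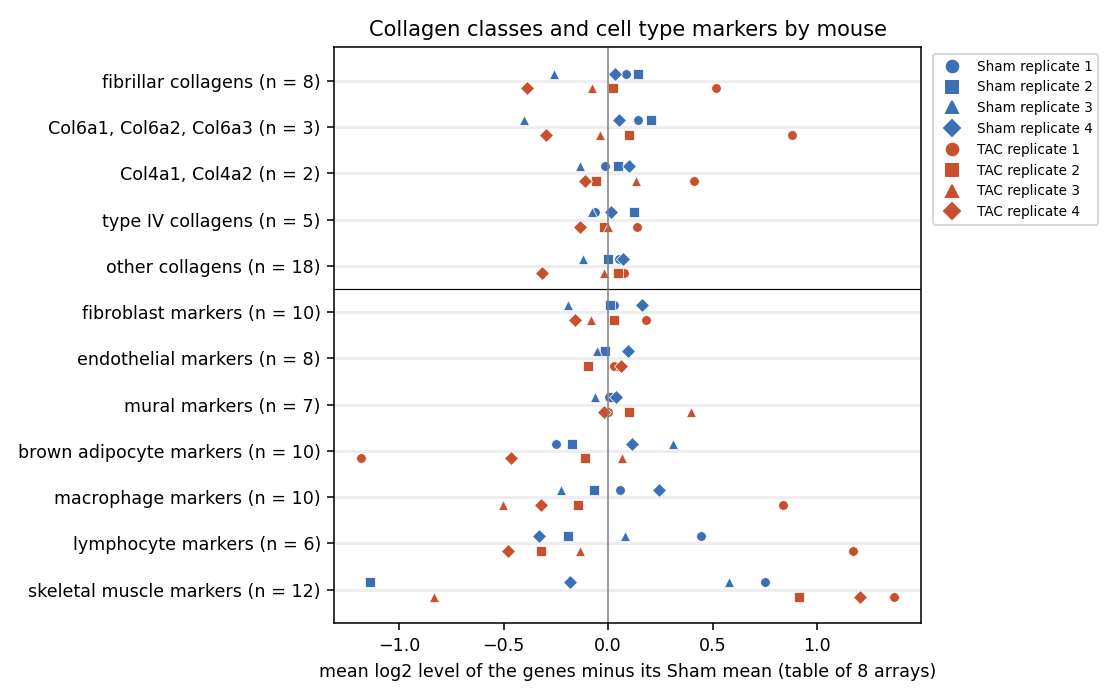
Mean log2 level of collagen classes (above the line) and of cell type marker lists (below it) on each of 8 arrays, minus the mean of the 4 Sham arrays (x axis), with the number of genes beside each name, Sham mice in blue and TAC mice in orange. TAC replicate 1 is highest for the fibrillar and type VI chains, at 0.51 and 0.88, and for the macrophage, lymphocyte and skeletal muscle lists, and lowest for the brown adipocyte list.

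Enzymes that make and crosslink collagen were looked at next. Of 27 tested genes of 30 listed, 0 passed an adjusted p of 0.05 in limma, 19 were higher and 8 lower, and 2 were higher at an unadjusted p under 0.05. For this list and those below, 44.2% of all probes were higher and 55.8% lower, and 4.38% were higher and 8.43% lower at that unadjusted p. Every TAC array was above every Sham array for 5.59% of all probes over 7 arrays and 3.53% over 8, and below for 10.4% and 6.29%. P3h4, a partner of the enzymes that modify the helix, was at 2.79, 2.79, 2.65 and 2.94 in Sham and at 3.03, 3.11, 3.22 and 3.11 in TAC. All TAC mice were above all Sham mice, and the log2 fold change was 0.34 (SE 0.10, limma unadjusted p = 0.0115, adjusted p = 0.284). Colgalt1, which adds galactose to hydroxylysine, was at 2.13, 2.18, 2.06 and 2.08 in Sham and at 2.39, 2.27, 2.38 and 2.25 in TAC. Its groups did not overlap either, with a fold change of 0.23 (SE 0.080, limma unadjusted p = 0.0230, adjusted p = 0.332). The crosslinking oxidase Lox (0.002), the collagen chaperone Serpinh1 (-0.063) and the prolyl hydroxylase subunits P4ha1 (-0.29) and P4ha2 (0.16), named here after their values were seen, did not pass. Without TAC replicate 1 Lox was at 0.069, Serpinh1 at -0.04 and P4ha1 at -0.084. The mean difference of the list then went from 0.082 to 0.032.

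Among 10 tested genes of 13 for degradation and its inhibitors, 7 were higher and 3 lower, with 0 past an adjusted p. Without TAC replicate 1 Mmp14 (-0.079), Timp2 (-0.002) and Timp3 (-0.01) turned lower and no gene turned higher. The mean difference of the list then went from 0.125 to 0.023. Timp4, an inhibitor of matrix metalloproteinases known from heart and fat, was at 4.08, 3.92, 3.86 and 4.08 in Sham and at 4.83, 4.31, 4.60 and 4.53 in TAC. Every TAC mouse was above every Sham mouse. The log2 fold change was 0.63 (SE 0.13, limma unadjusted p = 0.00213, adjusted p = 0.197), the smallest p of any gene of the collagen pathway lists. Mrc2, a receptor that takes up collagen (0.24), and the metalloproteinase Mmp19 (-0.17) had groups that did not overlap over 7 arrays, and overlapped once Sham replicate 1 was included.

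Of 7 tested collagen receptors of 9 listed, 3 were higher and 4 lower. Ddr1, a receptor kinase that binds fibrillar and type IV collagen, was at -1.53, -1.42, -1.09 and -1.03 in Sham and at -1.53, -1.55, -1.83 and -1.40 in TAC. Its groups overlapped, and the log2 fold change was -0.38 (SE 0.15, limma unadjusted p = 0.0333, adjusted p = 0.356). Itgb1, the beta chain of the collagen-binding integrins, was higher by 0.19 without overlap over 7 arrays, and the groups overlapped over 8.

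Other components of the basement membrane went both ways, 11 of 15 tested genes higher and 4 lower. The mean difference of that list went from 0.063 to 0.02 without TAC replicate 1. Lamb1, a laminin chain, was at 5.47, 5.41, 5.39 and 5.62 in Sham and at 4.74, 5.17, 5.17 and 5.05 in TAC. All TAC mice were below all Sham mice, TAC replicate 1 furthest, and the log2 fold change was -0.43 (SE 0.14, limma unadjusted p = 0.0157, adjusted p = 0.305). Hspg2, the core protein of perlecan, was at 4.28, 4.10, 3.82 and 3.93 in Sham and at 4.59, 4.28, 4.26 and 4.03 in TAC, a difference of 0.36 (SE 0.14, limma unadjusted p = 0.0388, adjusted p = 0.367). Agrn, the proteoglycan agrin, was higher by 0.26 with no overlap over 7 or 8 arrays (limma unadjusted p = 0.0562). So Lamb1 was lower on the same TAC arrays on which Agrn was higher.

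Small leucine-rich proteoglycans, which coat collagen fibrils, had 5 of 6 tested genes higher and 1 lower and 0 at an unadjusted p under 0.05, among them decorin (Dcn, 0.135) and lumican (Lum, 0.19). Without TAC replicate 1 Lum was at 0.091, Aspn (-0.075) and Bgn (-0.111) turned lower, and Ogn (0.023) turned higher. Genes of fibroblast activation had 6 of 11 higher and 5 lower and 0 at that threshold. Tgfb1, the cytokine best known for inducing collagen genes in fibroblasts, was at -0.51, -0.37, -0.63 and -0.51 in Sham and at 0.26, -0.39, -0.12 and -0.30 in TAC. TAC replicate 1 was highest and TAC replicate 2 lay level with Sham replicate 2, so the groups were apart over 7 scanner arrays and overlapped in the table. The log2 fold change was 0.385 (SE 0.16, limma unadjusted p = 0.0501, adjusted p = 0.390). The other members included periostin (Postn, 0.125), fibronectin (Fn1, -0.101) and smooth muscle actin (Acta2, 0.25). Without TAC replicate 1 Postn was at 0.081, Fn1 at -0.052 and Acta2 at 0.47.

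**Figure D5:**
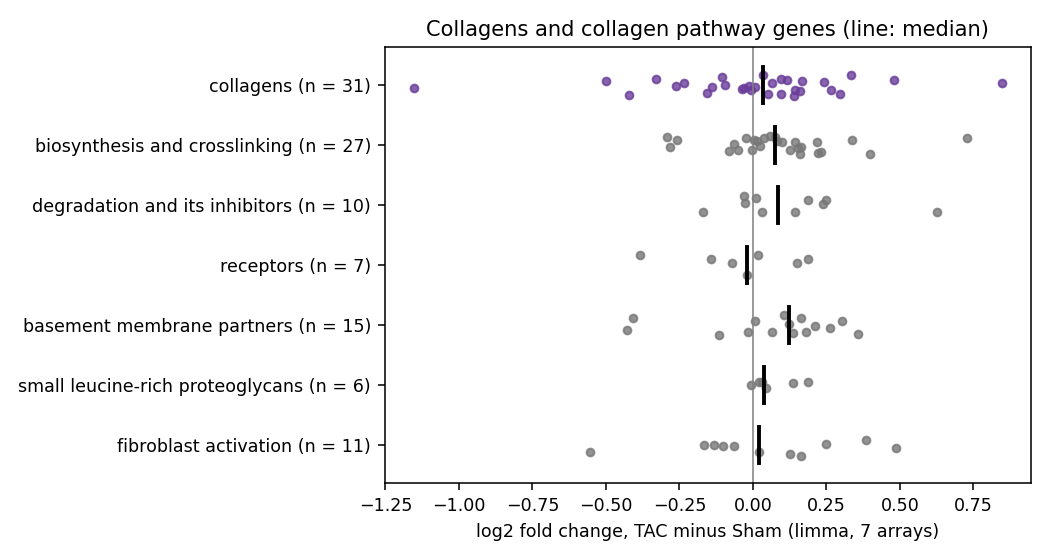
Log2 fold change, TAC minus Sham, from limma on 7 arrays (x axis) for the tested collagens and for the genes of 6 lists of the collagen pathway, 1 point per gene, with the median of each list as a black line. The medians run from -0.019 for the receptors to 0.121 for the basement membrane partners, with 0.034 for the collagens.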

How the data were processed

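Total RNA of BAT was labelled with Cy3 and hybridized to Agilent single-colour arrays. Per the file headers, the authors extracted the spots with Feature Extraction 10.7.1.1, and the deposited scanner intensity had the background subtracted and no scaling between arrays. A deposited table holds 1 intensity per probe for 8 arrays. By its values it is the scanner intensity divided by the 75th percentile of each array, and at least 99.99% of compared values lay within 1% of that. How the table was made is not given in the sources used here, and its values are linear.

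Of 59305 spots that are not controls, those marked as outliers (134 to 191 per array) were left out. From the log2 of each intensity the 75th percentile of the array was taken away, and probes with several spots got their mean. Probes well above background on at least 3 of 7 arrays and present on 2 or more arrays in both groups were tested with limma 3.58.1 (lmFit and eBayes; R 4.3.3), TAC against Sham without a block, with Benjamini-Hochberg adjustment over 33364 probes. The test was two-sided. A gene with several probes was read from the brightest, by mean log2 intensity. Symbols came from a RefSeq table (GRCm38.p6), which named 50.3% of the probes. Fold changes come from the scanner values of 7 arrays and levels from the table of 8, unless stated otherwise.

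Named genes were 12 chains listed as abundant, every collagen with an unadjusted p under 0.05 or groups that did not overlap, and at most 3 such genes of each of 6 pathway lists. The list of 12 was not a ranking by the levels measured here. Other genes were named after their values were seen. The members and all lists were chosen with earlier results of these data known. Nothing in the labels says more of how the samples of a group were separated, so the p-values measure the spread between these samples. On simulated data for this comparison, over 33364 probes, the test found 59% of 100 probes changed by 1 on the log2 scale and 84% of 100 changed by 2, with 7 false calls. Every tested collagen but Col25a1 differed by less than 1, a size for which these figures give no recovery. The small number of arrays limits the precision. Alternatives were normexp with an offset of 50, median and quantile scaling, the table, other filters, a replicate block, each array left out, array weights, the methods' t-test, all probes of a gene, a wider basement membrane class and, chosen after seeing the data, the table without TAC replicate 1.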

Additional observations from a re-analysis of the deposited data

Results flagged for a closer look

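Of 70 groups of 4 arrays examined for a lone array (the levels of the tested collagens and the class means), 3 had one, all in Sham and all on Sham replicate 3, where chance gives about 1 in 20 groups. For Col5a3, a type V chain, this array gave 2.48 while its Sham neighbours gave 3.0 to 3.06. Col13a1, a transmembrane collagen, was at -4.76 there and between -4.01 and -3.94 on the others. Its probe was dim, well above background on 3 of 7 arrays. The mean of all tested collagens, which includes both genes, was -0.15 there against the Sham mean and 0.04 to 0.06 on the others.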

How the results depend on the processing

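No collagen gene passed an adjusted p of 0.05 in limma under any alternative run (0 in each). Over all probes the count was 0, 1 under normexp and 1 with array weights, and 0 to 9 with each array left out, 9 without TAC replicate 4. Collagens higher at an unadjusted p under 0.05 were 3, and 3 to 4 with each array left out. When every array had to be well above background, only Col12a1 and Col23a1 were left of them. Collagens lower were 3, but 1 under normexp, 1 when every array had to be well above background, and 1 to 4 with each array left out. The methods' t-test gave 3 higher and 2 lower, and 0 after Benjamini-Hochberg adjustment.

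The labels give arrays only a shared replicate number. Deviations of same-numbered arrays correlated by 0.002, -0.026 and -0.021 for replicates 2 to 4 of the scanner values and by 0.269, 0.02, 0.056 and 0.02 for replicates 1 to 4 of the table, not over 0.1 in every pair, so they were not taken as pairs. The fit with the replicate block also called 0 collagens, with 3 higher and 3 lower at an unadjusted p under 0.05. Over the scanner values the block leaves TAC replicate 1 without a partner, so its values are those without that array. The type IV median was -0.096 to 0.091 with each array left out, 0.091 without Sham replicate 2. The fibrillar median ran from -0.20 to 0.24 over the alternatives, the other collagens from -0.076 to 0.14 and all probes from -0.056 to 0.006.

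Of 354 values of 18 named genes, 315 kept their direction and 39, in 10 genes, changed sign, none past the threshold. With the replicate block over the scanner values Col1a1 was -0.18, Col1a2 -0.13, Col4a1 -0.027, Col5a1 -0.145, Col6a2 -0.079, Col6a3 -0.005 and Col18a1 -0.055. With array weights Col1a1 was -0.13, Col1a2 -0.109, Col4a1 -0.026, Col5a1 -0.066, Col6a2 -0.018 and Col18a1 -0.004. In the table without TAC replicate 1 Col1a1 was -0.18, Col1a2 -0.16, Col4a1 -0.037, Col5a1 -0.22, Col6a1 -0.002, Col6a2 -0.15, Col6a3 -0.087 and Col18a1 -0.070. Col3a1 was 0.010 under normexp and 0.057 under quantile scaling. With each array left out the ranges were -0.18 to 0.27 for Col1a1, -0.13 to 0.19 for Col1a2, -0.28 to 0.26 for Col3a1, -0.027 to 0.17 for Col4a1, -0.145 to 0.36 for Col5a1, -0.079 to 0.315 for Col6a2, -0.005 to 0.41 for Col6a3, -0.33 to 0.058 for Col15a1 and -0.055 to 0.28 for Col18a1. The lowest of each came without TAC replicate 1. The cause was not tested.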

Other observations

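Col26a1, which was not tested, had a level of -2.83 in Sham replicate 1, while the 3 remaining Sham mice had -6.97 to -5.57. In TAC replicate 1 it was -4.27, and the 3 remaining TAC mice had -6.80 to -5.38. The gene was chosen after its values were seen.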
